A study of Mus musculus with 4 samples.

Results

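The proline and arginine synthesis genes examined here were Aldh18a1, Pycr1, Pycrl, Prodh, Oat, Arg2, Ass1 and Asl. They were chosen by name as the rows of the count table that carry these symbols, and all 8 were found among its 23481 genes. The cells were mouse 4T1-T cells, a derivative of the 4T1 mammary carcinoma line, in which Asns, the gene of asparagine synthetase, had been silenced. All 4 libraries came from silenced cells in DMEM. In 2 the medium held no asparagine (the asparagine-free libraries A and B), and in 2 it held asparagine (the supplied libraries A and B). How Asns was silenced, and whether the letters mark separate cultures, is not given in the sources used here, so the p-values rest on differences among the 4 libraries, which can be technical.

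Proline is made in mitochondria and cytosol from glutamate or from ornithine, by way of the shared intermediate pyrroline-5-carboxylate (P5C). Aldh18a1 encodes P5C synthase, which turns glutamate into P5C. Pycr1 and Pycrl (now named Pycr3) encode P5C reductases, which turn P5C into proline, and Prodh encodes proline dehydrogenase, which turns proline back into P5C. Oat, ornithine aminotransferase, interconverts ornithine and P5C, and Arg2, the mitochondrial arginase, releases ornithine from arginine. Ass1 and Asl encode the successive enzymes that build arginine from citrulline and aspartate, the amino acid from which asparagine is also made. In the liver these enzymes serve the urea cycle, and in most other tissues Ass1 and Asl recycle citrulline to arginine.

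Promoter sequences are shown for the P5C synthase gene, for a P5C reductase gene with a match to the amino acid response motif, and for Ass1, which was listed at 0. They come from RefSeq (build GRCm38.p6), whose table held 5 of the 8 members, and bases that lie in a GENCODE M21 exon were left off. Positions count from the start site, -1 being the base before it, and capitals mark motif matches on either strand. Aldh18a1 is at chr19:40588464-40588713 (minus strand, positions -250 to -1), Pycr1 at chr11:120643770-120643998 (minus strand, -250 to -22) and Ass1 at chr2:31470020-31470206 (plus strand, -250 to -64).
Aldh18a1: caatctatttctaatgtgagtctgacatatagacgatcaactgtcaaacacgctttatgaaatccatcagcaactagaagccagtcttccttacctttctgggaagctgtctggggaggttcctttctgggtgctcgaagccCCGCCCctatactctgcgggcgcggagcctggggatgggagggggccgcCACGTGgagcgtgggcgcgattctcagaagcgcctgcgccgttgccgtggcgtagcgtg
Pycr1: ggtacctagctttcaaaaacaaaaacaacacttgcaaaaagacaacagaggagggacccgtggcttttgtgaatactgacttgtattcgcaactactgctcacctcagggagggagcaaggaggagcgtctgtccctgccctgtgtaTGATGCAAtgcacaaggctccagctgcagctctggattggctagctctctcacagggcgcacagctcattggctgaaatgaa
Ass1: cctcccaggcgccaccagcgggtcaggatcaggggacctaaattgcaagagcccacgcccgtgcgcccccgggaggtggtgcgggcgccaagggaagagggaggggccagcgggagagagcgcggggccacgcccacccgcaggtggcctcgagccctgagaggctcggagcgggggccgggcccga

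Motifs were searched in the 250 bases before the start site. TGATGNAA, the core of the element through which ATF4 and C/EBP factors respond to amino acid shortage, matched once in Pycr1, at -103, and in no other of the 5 windows. It was found in 3.45% of all 32851 windows. CACGTG, the E-box bound by MYC and other factors, matched once in Aldh18a1 at -59 and once in Ass1 at -36, and was found in 6.02% of all windows. GGGCGG, the GC box, matched once each in Aldh18a1 at -108, Pycr1 at -17 and Ass1 at -63, against 32.7% of all windows. The matches at -36 and -63 in Ass1 and at -17 in Pycr1 lie in the exon bases that were left off. TATAAA matched in none of the 5 windows, against 12.4% of all windows, and no match overlapped one of another motif. The Ass1 window had 75.6% G and C, the Aldh18a1 window 57.2% and the Pycr1 window 53.6%, against a median of 52.4% over all windows. These matches describe letters only.

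Reads assigned to genes numbered 17977552 to 30260582 per library. Library A of the asparagine-free group stood apart, with 56.6% of its reads outside annotated features against 46.3% to 49.3% in the other 3. Rn45s, a ribosomal RNA gene, took 3.53% and 1.66% of gene counts in asparagine-free libraries A and B. In supplied libraries A and B it took 0.884% and 1.18%, so this share separated the groups. Its part in the results was not tested. Summed epithelial markers (6 genes) were at 824 to 1006 CPM (reads scaled to the same total in each library), and all 6 were detected. The 5 fibroblast markers summed to 0.0545 to 0.400 CPM and the 3 hepatocyte markers to 0 to 0.133 CPM. The 6 leukocyte markers summed to 6.35 to 7.52 CPM, of which Cd68 gave 5.60 to 6.92 CPM, and Cd3e, Thy1 and Adipoq were at 0.

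None of the members passed the test for a difference between growth without and with asparagine. The test was edgeR's quasi-likelihood test over 12843 genes, which called 1.85% of them at an adjusted p threshold of 0.05. Of the 8 members 7 passed the filter on low counts, and 0 of 7 were called. At an unadjusted p under 0.05 there was 1 member, Prodh, against 18.1% of all genes tested, and DESeq2's Wald test also called 0 members. The median log2 fold change of the 7 was 0.01 (without minus with asparagine), the same as the median of 0.01 over all genes. Both asparagine-free libraries lay above both supplied ones for 1 member, Prodh, and below both for 2, Asl and Arg2. Such separation was found for 26.1% of all tested genes in the upward and 26.4% in the downward direction, so these counts are near the background.

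**Figure D1:**
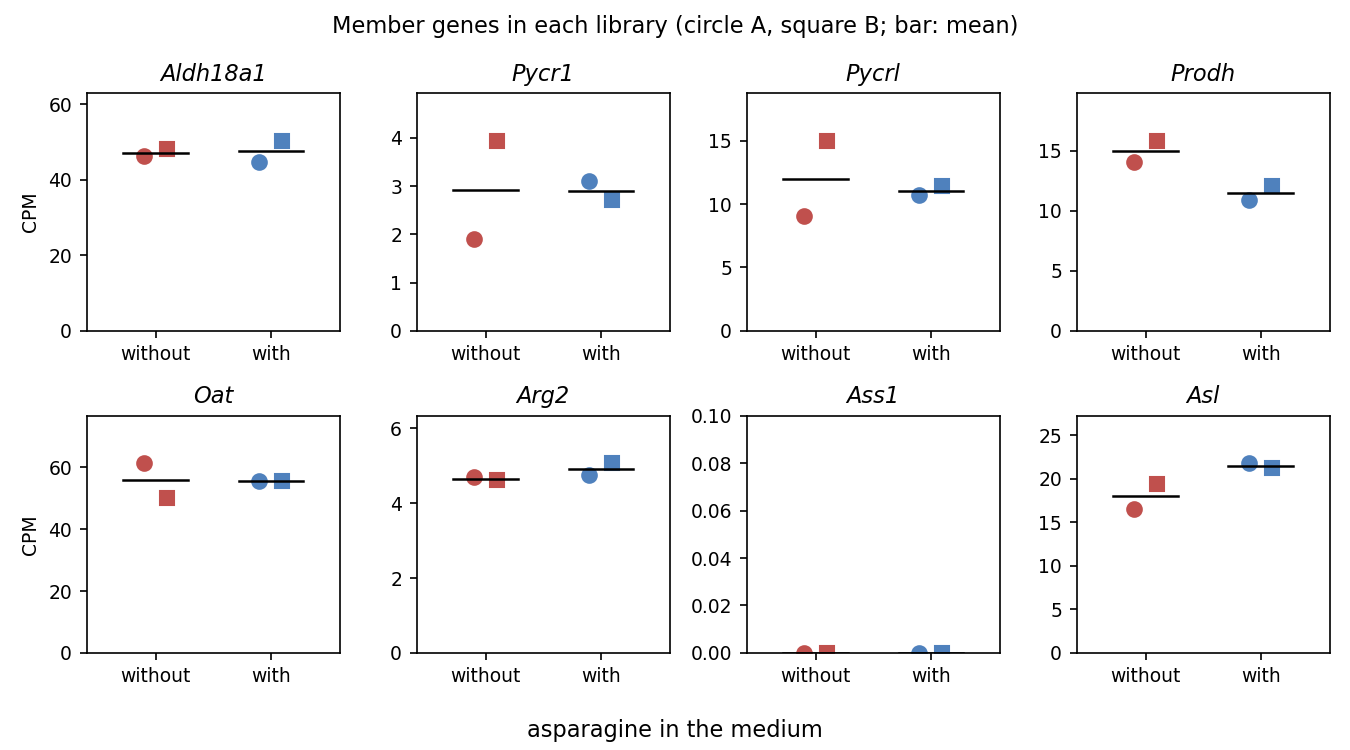
CPM of the 8 genes (vertical axes, each from 0) in the 2 libraries without and the 2 with asparagine (circles A, squares B), with bars at group means. Prodh is separated upward and Asl downward without asparagine, Pycr1 and Pycrl differ most between the 2 libraries without it, and Ass1 is at 0.

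Aldh18a1, at the entry from glutamate, was at 46.2 and 48.1 CPM in asparagine-free libraries A and B and at 44.8 and 50.3 CPM in supplied libraries A and B. The asparagine-free libraries lay between those with it. Its log2 fold change was -0.01 ± 0.11 (SE, edgeR adjusted p = 0.962), with a 95% interval of -0.28 to 0.25, or 0.826-fold to 1.19-fold. The gene spans 40550257 to 40588463 on chromosome 19, and it had 847 to 1507 reads per library.

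Pycr1 was the weakest of the detected members, with 1.91 and 3.94 CPM in asparagine-free libraries A and B and 3.11 and 2.70 CPM in supplied libraries A and B. The 2 asparagine-free libraries held the lowest and the highest value, so the groups overlapped. Its log2 fold change was 0.03 ± 0.34 (SE, edgeR adjusted p = 0.970), and the 95% interval of 0.583-fold to 1.79-fold spans both directions, at 35 to 88 reads per library. When library A of the asparagine-free group was left out it was 0.44 (adjusted p = 0.256), and when library B was left out it was -0.60 (adjusted p = 0.120). Its span on chromosome 11 runs from 120635712 to 120643769.

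Pycrl showed the same split between the asparagine-free libraries. It was at 9.05 and 14.98 CPM in asparagine-free libraries A and B and at 10.7 and 11.4 CPM in supplied libraries A and B. Library A was lowest and library B highest of the 4. The log2 fold change was 0.13 ± 0.23 (SE, edgeR adjusted p = 0.802), with a 95% interval of -0.42 to 0.68. Leaving out library A of the asparagine-free group, it was 0.43 and called (adjusted p = 0.0245), in a fit that called 15.6% of all genes. Leaving out library B it was -0.30 (adjusted p = 0.158). Library A is also the one with 56.6% of reads outside annotated features, whose part in the Pycr1 and Pycrl values was not tested. Pycrl is on chromosome 15, from 75916477 to 75921560.

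Of the reads of Pycr1 and Pycrl together, Pycr1 took 17.4% and 20.8% in asparagine-free libraries A and B (95% Wilson intervals 12.8% to 23.3% and 17.2% to 24.9%). In supplied libraries A and B it took 22.5% and 19.1% (18.3% to 27.3% and 15.7% to 23.2%). The groups overlapped, and so did all 4 intervals, which cover counting error only. The shares rest on 201 and 423 reads in asparagine-free libraries A and B, and no difference in the ratio of the genes was detectable at this depth. Per kilobase of exon, Pycrl had 6.76 to 11.2 CPM over the 4 libraries and Pycr1 had 0.485 to 1.00 CPM, so the lowest Pycrl value lay above the highest of Pycr1.

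Prodh, the gene of the first enzyme of proline breakdown, was higher in both asparagine-free libraries, though not past the adjusted threshold. It was at 14.1 and 15.8 CPM in asparagine-free libraries A and B and at 10.9 and 12.1 CPM in supplied libraries A and B, so the groups did not overlap. The means were 14.97 ± 1.21 and 11.5 ± 0.836 CPM (SD, n = 2 each), and the difference on the log2 scale was 0.38 ± 0.14 (SE, unadjusted p = 0.0303, edgeR adjusted p = 0.228). The 95% interval, which is not adjusted for the number of genes, was 1.03-fold to 1.63-fold. Over the 12 alternative fits the log2 fold change lay between 0.29 and 0.45 and the adjusted p between 0.0148 and 0.954. The call was made only without library A of the asparagine-free group (0.45, adjusted p = 0.0148), in the fit that called 15.6% of all genes. Its span on chromosome 16 runs from 18060357 to 18090203.

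Set against the entry enzyme, Prodh took 23.4% and 24.8% of the reads of Prodh and Aldh18a1 together in asparagine-free libraries A and B, and 19.6% and 19.4% in A and B with it. This ratio does not depend on how libraries are scaled. The Wilson interval of library A of the asparagine-free group (21.0% to 26.0%) overlapped those of libraries A and B with it (17.6% to 21.8% and 17.7% to 21.3%), while that of library B of the asparagine-free group (22.6% to 27.1%) lay above both with it. Set against Pycr1 instead, Prodh took 88.1% and 80.1% of the reads of the pair in asparagine-free libraries A and B and 77.8% and 81.8% in the supplied ones, so the groups overlapped. With 2 libraries against 2, an exact two-sided permutation test cannot go below p = 0.333, so none was run. Among 9367 other tested genes whose mean reached 5 CPM, the profiles nearest to that of Prodh over the 4 libraries were those of Fez2, Ap4b1 and Wisp1 (Euclidean distances of mean-centred log2 CPM 0.0117, 0.0370 and 0.0374). Each of these was separated between the groups without being called, with log2 fold changes of 0.39, 0.37 and 0.40. With 4 libraries such likeness is a description only. Prodh2, a related dehydrogenase gene of hydroxyproline breakdown, had 0, 0, 1 and 2 reads. Aldh4a1, which takes P5C on to glutamate and was named after its values were seen, had 2.77 to 3.60 CPM (log2 fold change -0.14 ± 0.22, edgeR adjusted p = 0.767). In GENCODE M21, 1595 of the 4907 exon bases of Aldh4a1 overlap exons of Gm21969 on the same strand. The effect of this overlap on its count was not tested.

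Oat, which links ornithine to P5C, was the most abundant member. It was at 61.4 and 50.2 CPM in asparagine-free libraries A and B and at 55.5 and 55.4 CPM in supplied libraries A and B. The asparagine-free libraries lay on either side of those with it. The log2 fold change was 0.01 ± 0.13 (SE, edgeR adjusted p = 0.980), with a 95% interval of 0.818-fold to 1.24-fold. It was -0.14 without library A and 0.14 without library B of the asparagine-free group. Oat is on chromosome 7, from 132557478 to 132576398.

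Arg2 was at 4.69 and 4.61 CPM in asparagine-free libraries A and B and at 4.75 and 5.07 CPM in supplied libraries A and B. Although the groups did not overlap, the nearest values were 4.69 and 4.75 CPM, and the log2 fold change was -0.08 ± 0.18 (SE, edgeR adjusted p = 0.836) with a 95% interval of 0.703-fold to 1.27-fold. In GENCODE M21, 401 bases of its exons overlap exons of Vti1b and Gm48780 on the other strand. Depending on the use of strand, reads there may have been counted for Arg2 or left out as ambiguous, which was not tested. Its span on chromosome 12 runs from 79130777 to 79156301. Arg1, the cytosolic arginase best known from liver and macrophages, had 4.36 and 2.82 CPM in asparagine-free libraries A and B and 3.07 and 2.00 CPM in the supplied ones (log2 fold change 0.50 ± 0.32, adjusted p = 0.429), and was called when asparagine-free library B was left out (0.80, adjusted p = 0.00858), in the fit that called 40.4% of all genes. Without asparagine-free library A its log2 fold change was 0.17 (adjusted p = 0.760). Arg2 took 51.8% and 62.0% of arginase reads without and 60.8% and 71.7% with asparagine, in libraries A and B. The Wilson interval of library A of the asparagine-free group (44.3% to 59.3%) lay below that of library B with it (65.3% to 77.3%), and the other intervals overlapped between the groups.

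On the arginine side, Ass1 was listed with 0 reads in all 4 libraries. The annotation used for counting is not given in the sources used here, so a 0 that arose in counting cannot be told apart from a lack of transcript. As a limit of counting error only, a count of 0 allows up to 3 counts over the 4 libraries, or 0.0318 CPM. A listing of 0 in every library was shared by 15.6% of the 23481 genes. The gene spans 31470207 to 31520672 on chromosome 2, and no exon of another GENCODE gene overlaps its exons. Its processed copy Gm5424 on chromosome 10 was also at 0 in every library. Whether reads that match both genes were left out of counting was not tested. Of its protein-coding neighbours, the nearest, Hmcn2, 9469 bases before it, had no row under that symbol in the counts. Prdm12, 119365 bases after Ass1, had 0, 0, 0 and 2 reads. Ncs1, 174218 bases before Ass1, had 590 to 966 reads per library, and Fubp3, 51979 bases after it, had 5098 to 7733. No difference between the groups could be tested for Ass1.

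Asl, the gene of the next enzyme, was expressed. It was at 16.5 and 19.5 CPM in asparagine-free libraries A and B and at 21.8 and 21.3 CPM in supplied libraries A and B, and both asparagine-free libraries were the lower. The means were 18.0 ± 2.08 and 21.5 ± 0.398 CPM (SD, n = 2 each), and the difference on the log2 scale was -0.26 ± 0.13 (SE, edgeR adjusted p = 0.357). The 95% interval was 0.673-fold to 1.04-fold. Without library B of the asparagine-free group the gene was called (log2 fold change -0.39, adjusted p = 0.0126), in a fit that called 40.4% of all genes, and without library A it was -0.15 (adjusted p = 0.495). Per kilobase of exon and over all libraries, Asl had 4.15 CPM, at least 315-fold higher than the 0.0132 CPM per kilobase that a count of 0 allows for Ass1, a bound that holds only if the listed 0 is a true count. Asl is on chromosome 5, from 130011258 to 130029247.

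**Figure D2:**
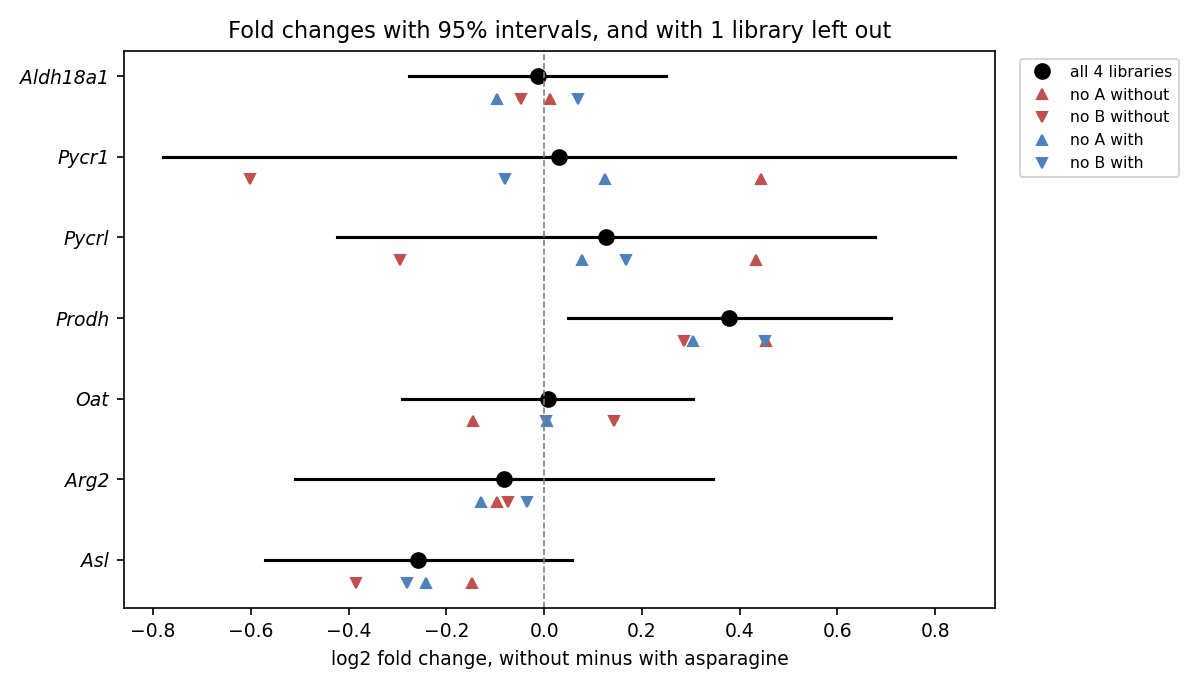
Log2 fold change (horizontal axis, without minus with asparagine) of the 7 tested members with all libraries (black points, lines the unadjusted 95% intervals) and with 1 library left out (triangles). Prodh stays above 0 and Asl and Arg2 below 0 in these fits, while Pycr1 and Pycrl move from -0.60 and -0.30 to 0.44 and 0.43 with the library left out.

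Compared per kilobase of exon, the members spanned a wide range of levels. Oat was highest with 23.6 ± 1.93 CPM per kilobase (SD, n = 4 libraries), at percentile 83.0 of 12069 tested genes with a length. Aldh18a1 followed with 11.6 ± 0.584 and Pycrl with 8.62 ± 1.87, and their ranges of 11.003 to 12.3 and 6.76 to 11.2 overlapped. Asl (4.09 ± 0.494) and Arg2 (3.35 ± 0.142) came next, with ranges that also overlapped. Prodh had 1.70 ± 0.278 and Pycr1 0.741 ± 0.215, each apart from its neighbours. The median tested gene had 5.82, so Oat, Aldh18a1 and Pycrl were above it and the other 4 detected members below. With the longest transcript as the length the order was the same, but Asl, at 8.19, was then above the median of 7.90, and the ranges of Pycrl (6.76 to 11.2) and Asl (6.84 to 9.04) then overlapped, while those of Aldh18a1 and Pycrl did not.

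**Figure D3:**
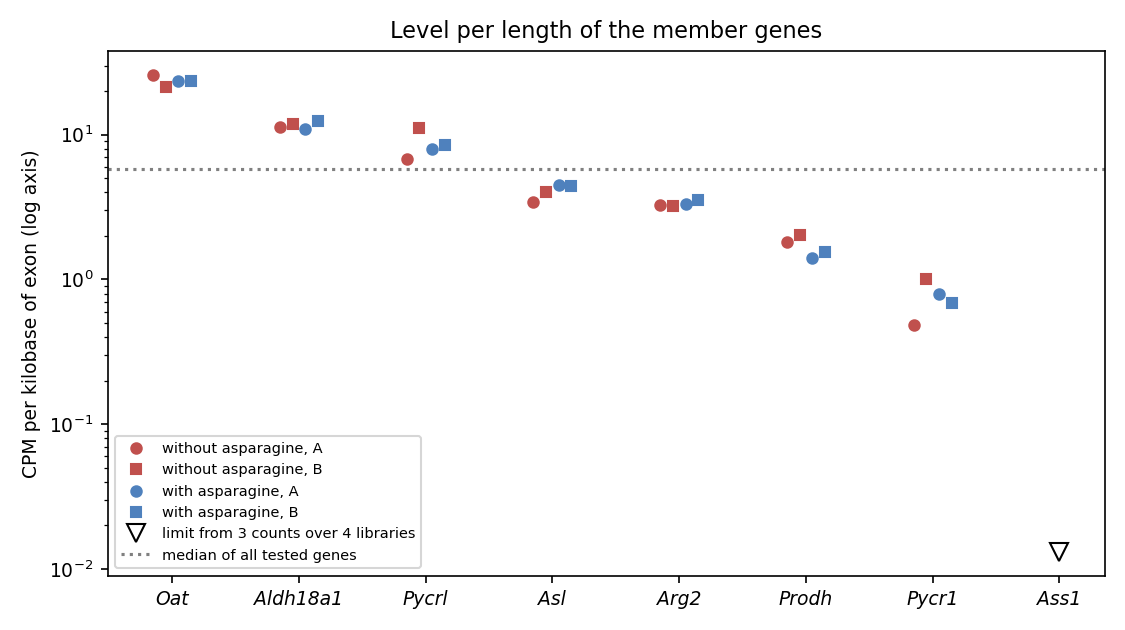
CPM per kilobase of exon (vertical log axis) of the members in each library, ordered by mean, with the median of all tested genes dotted and the limit that 3 counts set for Ass1 as an open triangle. Means run from 23.6 for Oat to 0.741 for Pycr1, and the libraries of Aldh18a1 and Pycrl overlap, as do those of Asl and Arg2.

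Genes around the members were read from 5 lists. Of 77 genes 63 were tested, and 0 were called higher and 0 lower (edgeR, adjusted p over all genes), against the 1.85% called overall. At an unadjusted p under 0.05 there were 15 of the 63, against 18.1% of all genes, and DESeq2's Wald test called 3, against 3.76% of the 12345 genes to which it gave an adjusted p. With asparagine-free library A left out 17 list genes were called, in the fit that called 15.6% of all genes, and with library B left out 33, in the fit that called 40.4%. Gpt2, Plod2, Slc3a2, Atf3 and Trp53 were among those called in both of these fits, and Asns and Slc7a3 among those called only in the latter. Among other enzymes of proline and arginine (8 of 17 tested, median log2 fold change -0.10, 2 above 0 and 6 below), Gamt, of creatine synthesis, had 1.29 ± 0.250 CPM asparagine-free and 2.00 ± 0.332 CPM supplied (SD, n = 2 each; log2 fold change -0.64, adjusted p = 0.313). The urea cycle genes Otc, Cps1 and Nags, named after their values were seen, had 0 or 1 read per library.

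Precursor supply, meaning enzymes and carriers of glutamate and aspartate, had a median of -0.16 (14 of 15 tested, 6 above 0 and 8 below). With asparagine-free library A left out this median was 0.02, and that of the other enzymes was 0.13. Gpt2, the mitochondrial alanine aminotransferase, had 26.1 ± 1.16 CPM asparagine-free and 19.6 ± 0.263 CPM supplied (log2 fold change 0.42, adjusted p = 0.145). Asns itself was at 75.0 and 89.2 CPM in asparagine-free libraries A and B and at 103 and 101 CPM in the supplied ones (log2 fold change -0.31, adjusted p = 0.235). No unsilenced library was analysed here, so these values do not check the silencing.

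Genes that use or recycle proline and arginine had a median of -0.05 (13 of 13 tested, 6 above 0 and 7 below), which was -0.22 with asparagine-free library B left out. Plod2, a collagen lysyl hydroxylase, had 273 ± 28.5 CPM asparagine-free and 374 ± 1.17 CPM supplied (log2 fold change -0.45, edgeR adjusted p = 0.117), and DESeq2 called it (adjusted p = 0.0457). Exons of Gm38391 on the opposite strand overlap 346 bases of its exons. P4ha3, a subunit of collagen prolyl 4-hydroxylase, had 3.44 ± 0.00727 CPM asparagine-free and 2.13 ± 0.284 CPM supplied (log2 fold change 0.68, adjusted p = 0.194). The transporters had a median of 0.08 (11 of 14 tested, 8 above 0 and 3 below), which was 0.16 with asparagine-free library A left out and 0.15 with supplied library A left out. Slc3a2, the heavy chain shared by several amino acid exchangers, was at 161 and 161 CPM asparagine-free and at 119 and 121 CPM supplied (log2 fold change 0.42, adjusted p = 0.0946), and Slc7a3, a cationic amino acid transporter, was at 2.66 ± 0.787 and 1.67 ± 0.193 CPM (log2 fold change 0.66, adjusted p = 0.300).

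Reported regulators of the members, such as ATF4, MYC and p53, and their target genes had the highest list median, 0.23 (17 of 18 tested, 11 above 0 and 6 below). It was -0.02 without library B of the asparagine-free group and 0.12 without library A of the supplied group. Of the 17 genes 8 had an unadjusted p under 0.05, against 18.1% of all genes tested, and 0 were called. Atf3, a stress-induced transcription factor gene, was at 5.995 and 7.51 CPM in asparagine-free libraries A and B and at 3.32 and 3.40 CPM in the supplied ones (log2 fold change 1.01 ± 0.20, edgeR adjusted p = 0.0638), and DESeq2 called it (adjusted p = 0.0340). Trp53, which encodes p53, was at 83.3 and 86.4 CPM asparagine-free and at 62.6 and 63.9 CPM supplied (log2 fold change 0.42, adjusted p = 0.101). Cdkn1a and Mdm2, p53 target genes of this list named after their values were seen, overlapped between the groups (-0.07 and -0.01). Atf4, named after its values were seen, had 224 ± 28.6 CPM asparagine-free and 191 ± 10.7 CPM supplied (log2 fold change 0.23, adjusted p = 0.370). Pycr1 and Aldh18a1, which are reported ATF4 targets, had the log2 fold changes of 0.03 and -0.01 given above. The Pycr1 interval was wide, at 0.583-fold to 1.79-fold. Ddit3, Atf5, Trib3, Mthfd2, Myc and Atf4 of this list were also higher in both asparagine-free libraries. Their log2 fold changes were 0.81, 0.78, 0.55, 0.25, 0.45 and 0.23. Such upward separation was found for 26.1% of all tested genes. Sesn2, Cebpb and Psat1 were among the 6 below 0 (-0.35, -0.26 and -0.17). All of these were named after their values were seen, and edgeR called none with all libraries.

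**Figure D4:**
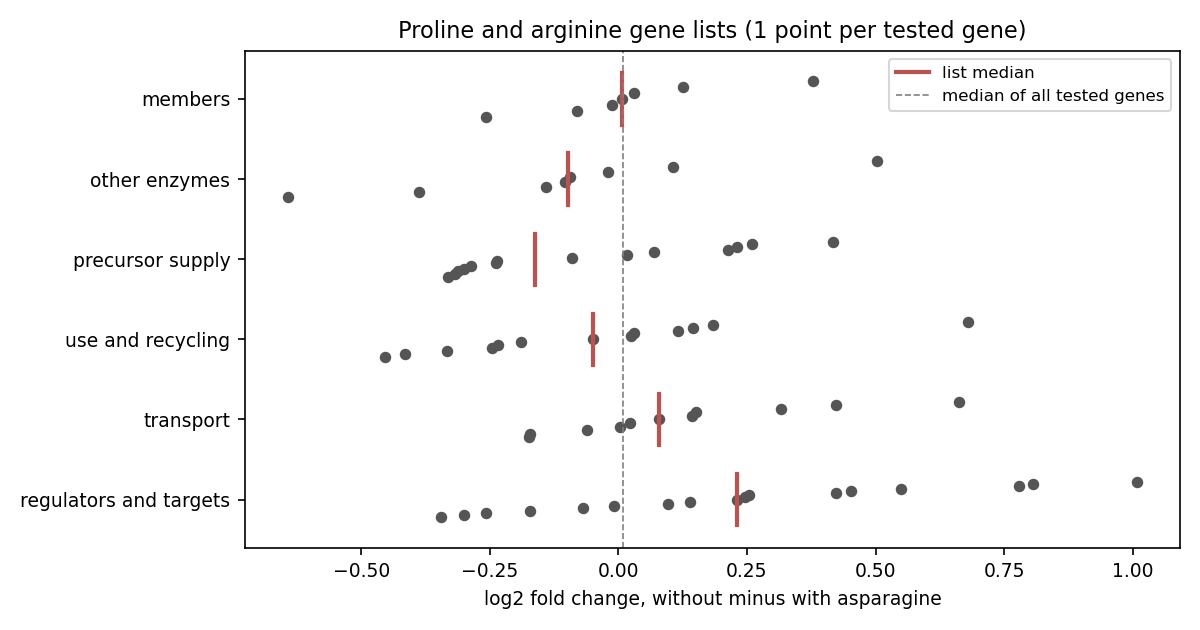
Log2 fold change (horizontal axis, without minus with asparagine) of each tested gene in the members and the 5 lists, with list medians in red and the median of all tested genes dashed. List medians lie between -0.16 and 0.23, and no gene shown was called.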

How the data were processed

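Total RNA was purified with a Qiagen kit and amplified with NuGEN Ovation RNAseq V2, per the labels' protocols. The authors processed reads with Bowtie2 and HTSeq on mm10, per the submitters' processing notes. Their versions and settings, the annotation and the use of strand were not given in the sources used here. Raw counts, as deposited by the authors, fill 1 column per library and 1 row per gene symbol. The 5 summary rows, 60.1% to 70.0% of all counts, were left out of library sizes.

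The counts were filtered with filterByExpr (minimum count 10, total 15), scaled by TMM and tested with edgeR 4.0.16's quasi-likelihood test over all genes, adjusted by Benjamini-Hochberg. SE is the size of the log2 fold change divided by the square root of F. CPM uses TMM-adjusted totals, and log2 CPM a prior count of 2. Alternatives used DESeq2 1.42.0, limma 3.58.1 and other scalings and filters. The fit was also run on counts simulated from its own estimates of spread, which cannot show how well it is calibrated for these libraries. GENCODE M21 gave positions and lengths. Wilson intervals are at 95%. Shares of reads over a whole enzyme step are not reported here for P5C reduction.

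The members, lists and tests were chosen with earlier results of these data known. Named genes were the members, the 2 with the smallest p in each list, close relatives, and 3 genes nearest in profile to the member with the smallest p. List symbols Azin2 and P3h1 were read as Adc and Lepre1.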

Additional observations from a re-analysis of the deposited data

How the results depend on the processing

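With 2 libraries a group, precision is set by the spread between libraries. For Pycr1 (35 to 88 reads per library) and Arg2 (86 to 152) it is also set by their few reads. The median over all genes moved by less than 0.1 on the log2 scale under every scaling. No member was called with any other scaling, filter or tool, or with the letter as a replicate block. Leaving out 1 library gave 0 to 2 called members, 0 to 33 list genes (17 without library A and 33 without library B without asparagine), 24 to 2502 genes called higher (99 with all libraries) and 24 to 2861 lower (138). A group left with 1 library was assumed to vary like the other.

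The DESeq2 Wald test called 193 genes higher, 271 lower and 3 list genes. Without the low-count filter the counts were 615, 719 and 7, with 19828 genes tested. Nothing in the labels pairs the letters. The A minus B differences of the groups had a Pearson correlation of 0.12 across genes. The replicate block gave 344 genes higher, 472 lower and 3 list genes, with 12843 genes tested. The cause of these shifts was not tested.

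Signs of near-zero log2 fold changes turned for Aldh18a1 with upper quartile scaling (0.034) and over single libraries left out (-0.096 to 0.069). They turned for Pycr1 with limma-voom (-0.027), with the replicate block (-0.0089) and over libraries left out (-0.60 to 0.44). The same held for Pycrl over libraries left out (-0.30 to 0.43), and for Oat with limma-voom (-0.0013), without the filter (-5.8e-05) and over libraries left out (-0.14 to 0.14). Prodh, Arg2 and Asl kept their direction in every alternative that tested them. The filter of 5 CPM in 2 libraries removed Pycr1 and Arg2.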
